A study of Homo sapiens with 23 samples.

Results

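The genes described here are the LCE1 and LCE2 genes, 10 of the 27589 genes in the deposited table, taken from it by gene symbol. They are LCE1A to LCE1F and LCE2A to LCE2D, and each was present in the table once. The values come from RNA-seq of 23 tumours of SCC-13 cells, a human cell line from a squamous cell carcinoma of the skin, injected under the skin of immunodeficient NCG mice with Matrigel and harvested on day 26. The 12 wild-type (WT) tumours carried intact human Flower (hFWE, gene symbol CACFD1) and came from the lines 5B2, 6C9 and 6C10, with 4 tumours each. The 11 knockout (KO) tumours carried a knockout of hFWE and came from the lines 2F7 (3 tumours), 2B8 (4) and 1G10 (4). The labels name the lines by code only, each line has 1 genotype, and no label says that every tumour grew in a separate mouse. The p-values therefore measure only how far these tumours differ among themselves, which may be technical in part. Tumours are named by genotype, line and specimen label.

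Late cornified envelope (LCE) genes encode small proteins rich in cysteine, glycine and serine. Keratinocytes make them late in terminal differentiation, in the upper granular layer, and transglutaminases cross-link them into the cornified envelope, the protein shell that replaces the plasma membrane of a dying keratinocyte. The genes stand in groups within the epidermal differentiation complex, beside those for loricrin, filaggrin, involucrin and the small proline-rich proteins. The LCE1 and LCE2 groups are the skin-type members, expressed in normal epidermis, whereas the LCE3 group is better known from injured or inflamed skin.

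On hg38 the members occupied 164.7 kb of chromosome 1, from the start of LCE2D at 152663380 to the end of LCE1A at 152828097. LCE1C was the only member on the minus strand. RefSeq promoter sequence (build GRCh38.p14) was matched by symbol for 9 of the 10 members, with LCE1B as the member without an entry. The 120 bases before the start are shown for the 4 LCE2 genes and for 3 LCE1 genes, because the groups differ in the letters near the start. Each runs 5′ to 3′ on the strand of its gene. Capitals mark the TATA box letters TATAAA, the related ATAAAA, the E-box CACGTG and the antioxidant response core TGACNNNGC. The stretches are chr1:152698225-152698344 for LCE2A, chr1:152686003-152686122 for LCE2B, chr1:152675159-152675278 for LCE2C, chr1:152663260-152663379 for LCE2D, chr1:152796601-152796720 for LCE1D and chr1:152775020-152775139 for LCE1F, all on the plus strand, and chr1:152806652-152806771 on the minus strand for LCE1C.
LCE2A: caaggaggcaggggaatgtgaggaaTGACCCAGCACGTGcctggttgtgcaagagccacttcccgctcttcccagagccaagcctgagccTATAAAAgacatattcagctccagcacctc
LCE2B: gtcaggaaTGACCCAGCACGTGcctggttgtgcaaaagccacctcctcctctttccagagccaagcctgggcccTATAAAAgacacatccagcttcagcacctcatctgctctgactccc
LCE2C: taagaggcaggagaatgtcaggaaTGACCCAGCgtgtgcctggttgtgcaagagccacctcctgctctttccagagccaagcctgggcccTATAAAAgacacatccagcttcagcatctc
LCE2D: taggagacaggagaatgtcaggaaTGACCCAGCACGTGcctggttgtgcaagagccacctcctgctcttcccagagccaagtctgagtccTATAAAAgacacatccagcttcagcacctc
LCE1C: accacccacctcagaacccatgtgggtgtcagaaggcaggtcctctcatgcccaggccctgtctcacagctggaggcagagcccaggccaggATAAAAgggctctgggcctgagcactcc
LCE1D: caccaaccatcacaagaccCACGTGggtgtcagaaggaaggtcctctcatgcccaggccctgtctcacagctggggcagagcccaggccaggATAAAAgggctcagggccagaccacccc
LCE1F: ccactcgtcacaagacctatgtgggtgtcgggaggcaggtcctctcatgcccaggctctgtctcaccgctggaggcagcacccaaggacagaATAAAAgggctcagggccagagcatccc

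The 250 bases before each start were searched on both strands for 7 motifs. TATAAA, the core of the TATA box, began 30 bases upstream in LCE2A, LCE2C and LCE2D and 46 bases upstream in LCE2B. In LCE1C, LCE1D, LCE1E and LCE1F the letters at the like place were ATAAAA, 28 to 23 bases upstream. ATAAAA overlaps TATAAA in the LCE2 genes and was found in 9 of 9 members and in 14.8% of 35116 promoters. LCE1A held ATAAAA only farther out, 208 to 199 bases upstream. TATAAA was found in 6 of 9 members and in 10.7% of promoters. In LCE1A and LCE1E, its matches lay farther out, 207 to 200 and 220 to 215 bases upstream. All 4 LCE2 genes, and none of the 5 LCE1 genes with sequence, held TGACNNNGC, the core of the antioxidant response element, each time as TGACCCAGC (10.9% of promoters). The same 4 genes held TTNNGCAA, a form of the C/EBP motif, as TTGTGCAA (9.05% of promoters). The letters from TGACCCAGC to TTGTGCAA were nearly the same in the 4 genes. Their matches are therefore not separate observations to set against the shares of all promoters. The E-box CACGTG, which shares 1 base with TGACCCAGC in LCE2A, LCE2B and LCE2D, was also found in LCE1D and LCE1E (5 of 9 members, 6.34% of promoters). The KLF motif CACCC was found in 6 of 9 members and in 54.7% of promoters, and the AP-1 motif TGANTCA in 0 of 9 and 6.57%. Compared base by base without gaps, the 6 pairs of printed LCE2 stretches matched at 22.5% to 92.5% of positions (median 37.5%). LCE2C with LCE2D was the highest. The 3 LCE1 pairs matched at 45% to 50% (median 45.8%). A shift between stretches lowers such a figure, and TGACCCAGC began 112 bases upstream in LCE2B, 95 in LCE2A and 96 in LCE2C and LCE2D. The figures therefore do not measure how alike the sequences are, or which group is more alike. The motif matches describe the letters and do not show binding.

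The table gives 1 normalized value per gene and tumour. The reads estimated for 21 libraries were between 13082603 and 22092275, with 7010962 in WT 6C9 specimen 5532 and 2037744 in WT 6C9 specimen 5533. Specimen 5533 stood apart, since its correlation with other libraries had a median of 0.850 and that of each of the rest at least 0.948, and 1 read was worth 9.14 there. All 10 keratinocyte markers were present at a mean of at least 10. CACFD1, the targeted gene, was between 286 and 432 in WT tumours (median 370) and between 167 and 370 in KO tumours (median 277), so the groups overlapped, and a gene-level value does not show the edit.

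Reads can be shared among near-identical LCE genes, which sets how firmly each member can be read. In the GENCODE release 29 transcripts, LCE2A shared no 50-base window with another LCE gene, and its values came to whole reads in 22 of 23 tumours. LCE2C shared 28.3% of its windows, most with LCE2B, and LCE2B shared 23.6%, most with LCE2C. LCE1C shared 18.7%, most with LCE1B, and LCE1A shared 18.2%, most with LCE1C. LCE1F shared 5.19%, LCE1B 5.96%, LCE1E 9.20% and LCE2D 12.3%. LCE2B and LCE1C came to whole reads in 0 of 23 tumours, so the values of such members include reads divided between copies and are uncertain to that extent. These transcripts are not the models that were counted, since only LCE1E has the same span in both, so the shares are approximate. The submitters' exon lengths were not used here, so the level of a member is compared between tumours and not with that of another member.

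Of the 10 members, 9 had a mean of at least 10 and were tested. LCE1D was the exception. Its value was 0 or a vanishing fraction of a read in most tumours, and the highest, 2.28 in WT 6C10 specimen 5537, came to 2.77 estimated reads, so no difference was detectable at this depth. It also shared 16.8% of its windows with LCE1E.

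**Figure D1:**
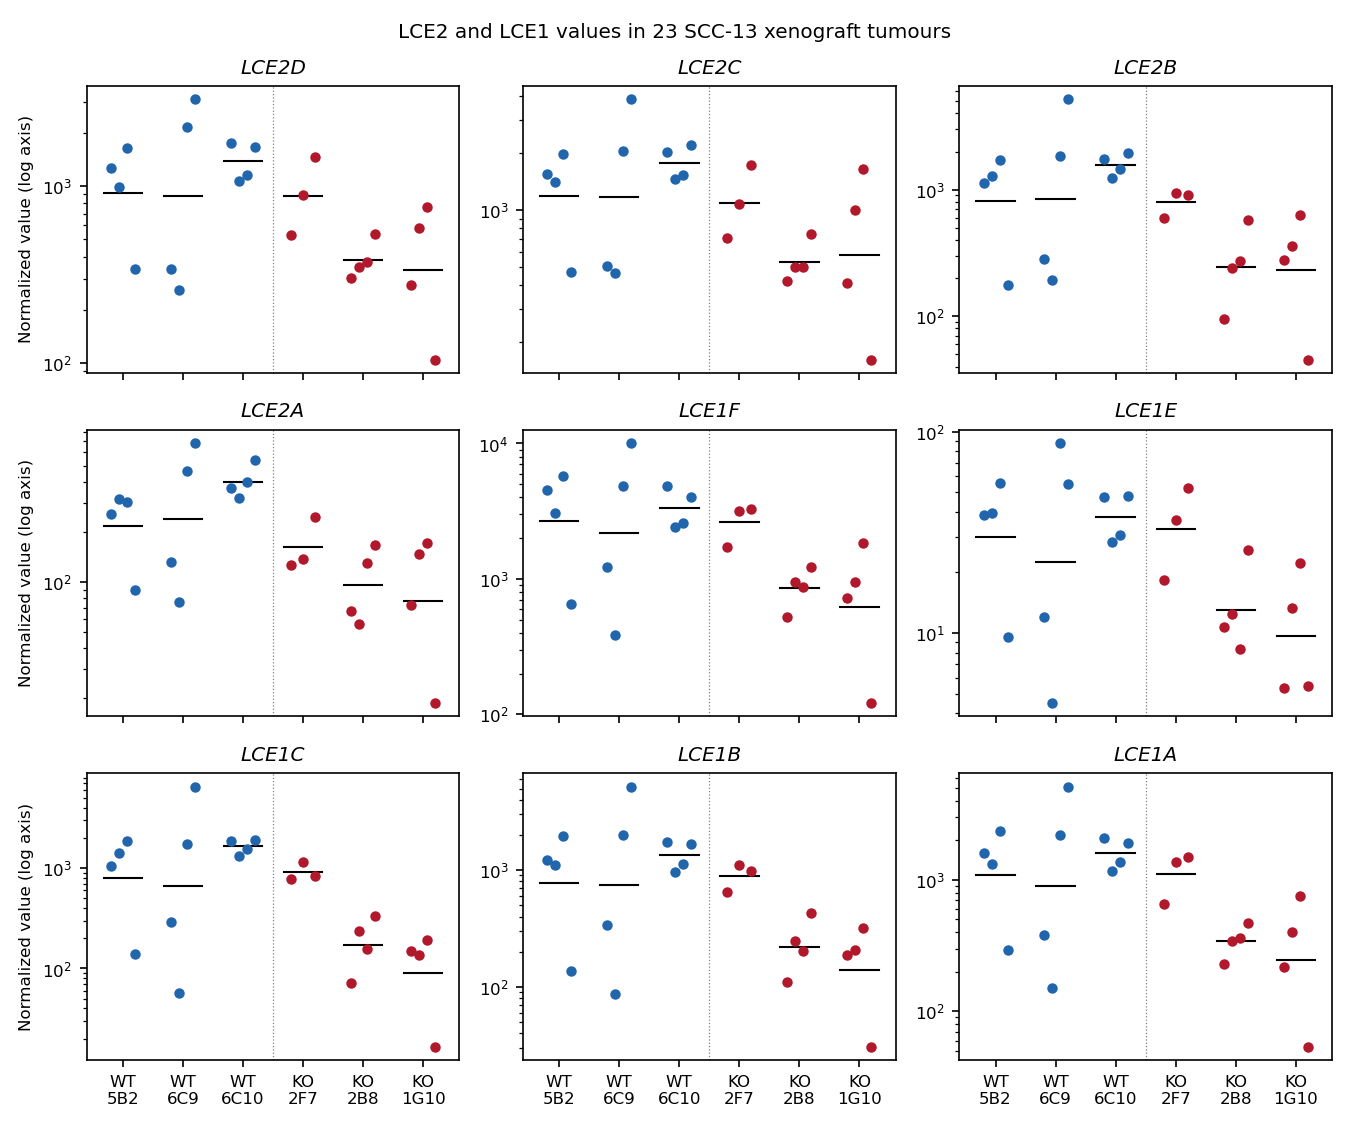
Normalized values (log axis) of the 9 tested members in each tumour, by line, with WT lines in blue and KO lines in red. Horizontal bars are the means on the log2 scale. The means of KO lines 2B8 and 1G10 lie below those of the other lines in every panel, line 2F7 lies near the WT lines in most, and 1 tumour of 5B2 and 2 of 6C9 lie as low as KO tumours.

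In KO tumours all 9 tested members had lower estimated levels than in WT tumours, and none passed adjustment over all 16063 genes tested. The median log2 difference of the 9 was -1.41, against 0.03 over all genes tested. In limma with Benjamini-Hochberg adjustment 0 of 9 were called lower, where 0.00623% of all genes were. At an unadjusted p under 0.05, 9 of 9 were lower, against 6.63% of all genes. For 5 of 9, LCE1B, LCE1C, LCE1F, LCE2A and LCE2B, the WT median was above each of the 11 KO tumours, against 2.78% of all genes. For 3 of 9, LCE2A, LCE2B and LCE2C, every KO line mean lay below every WT line mean, against 8.87%. The members varied together across tumours (r of 0.860 to 0.992 between pairs), so these counts are not of separate observations. In bulk tumours, fewer late keratinocytes and less LCE RNA in each of them cannot be told apart.

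LCE1C (ENSG00000197084, 152804832 to 152806651, minus strand) had the largest difference of the tested members. In WT tumours its normalized values were 1059, 1405, 1874 and 140.3 in 5B2, 291, 57.0, 1724 and 6513 in 6C9, and 1869, 1319, 1561 and 1898 in 6C10. In KO tumours they were 781, 1147 and 833 in 2F7, 72.4, 236, 157 and 333 in 2B8, and 150.2, 137, 191 and 16.5 in 1G10. The 6C10 tumours were close together, whereas 6C9 held both the lowest and the highest WT tumour. All 2B8 and 1G10 tumours lay below all 2F7 tumours, and the genotypes overlapped, with the low WT specimens 5529, 5530 and 5531 among the KO values and WT 5B2 specimen 5526 below KO 2F7 specimen 5539. The WT mean was 1643 ± 1679 (SD, n = 12) and the KO mean 369 ± 374 (SD, n = 11). By limma the log2 difference was -2.13 (SE 0.71, adjusted p = 0.261). Over all tumours its highest value was 395 times its lowest, the widest range of the tested members.

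The neighbours LCE1B (ENSG00000196734, 152811971 to 152813108) and LCE1A (ENSG00000186844, 152827473 to 152828097) on the plus strand followed the same tumours. LCE1B ran from 87.0 through a median of 1176 to 5207 in WT and from 30.5 through 245 to 1101 in KO tumours. The highest KO tumour, 2F7 specimen 5539, was below the WT median, while the 3 low WT specimens lay among the KO values. Limma gave -1.74 for LCE1B on the log2 scale (SE 0.63, adjusted p = 0.287). LCE1A ran from 149 through 1478 to 5125 in WT and from 53.7 through 405 to 1487 in KO tumours, and 10 of the 11 were below the WT median. Its log2 difference was -1.47 (SE 0.55, limma adjusted p = 0.3003).

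LCE1F (ENSG00000240386, 152775140 to 152777024, plus strand) was 384 in the lowest, 3528 in the median and 10122 in the highest WT tumour. In KO tumours those values were 121, 956 and 3263. The WT median was above each KO tumour, but the KO 2F7 specimens 5539 and 5540, at 3188 and 3263, lay above some WT tumours outside the low ones, such as 6C10 specimen 5535 at 2432. Its log2 difference was -1.38 (SE 0.53, limma adjusted p = 0.304). LCE1E (ENSG00000186226, 152786214 to 152788426, plus strand) rested on few reads. It ran from 4.49 through 39.0 to 88.0 in WT and from 5.34 through 13.3 to 52.5 in KO tumours, a log2 difference of -0.92 (SE 0.44, limma adjusted p = 0.394). The lowest tumour of all for LCE1E was a WT tumour, 6C9 specimen 5531.

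LCE2A (ENSG00000187173, 152698345 to 152699442, plus strand) is the member without shared windows. Its normalized values in WT tumours were 257, 317, 301 and 89.3 in 5B2, 131, 76.3, 464 and 685 in 6C9, and 367, 319, 398 and 542 in 6C10. In KO tumours they were 127, 138 and 245 in 2F7, 67.3, 56.2, 131 and 167 in 2B8, and 73.0, 147, 171 and 18.7 in 1G10. Every KO tumour was below 9 of the 12 WT tumours, and the other 3 were again specimens 5529, 5530 and 5531. The WT mean was 329 ± 182 (SD, n = 12) and the KO mean 122 ± 63.9 (SD, n = 11). By limma the log2 difference was -1.41 (SE 0.40), and its adjusted p of 0.227 was the smallest of the members. These values rested on 24.0 to 658 estimated reads per tumour.

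LCE2B (ENSG00000159455, 152686123 to 152687397), LCE2C (ENSG00000187180, 152675279 to 152676569) and LCE2D (ENSG00000187223, 152663380 to 152664659) also lie on the plus strand. LCE2B ran from 177 through a median of 1369 to 5201 in WT and from 45.5 through 356 to 936 in KO tumours, a log2 difference of -1.63 (SE 0.56, limma adjusted p = 0.271). LCE2D ran from 259 through 1217 to 3109 in WT and from 105 through 532 to 1460 in KO tumours, a log2 difference of -1.17 (SE 0.42, limma adjusted p = 0.287). For LCE2D the KO tumour 2F7 specimen 5540 lay above the WT median.

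LCE2C had the smallest log2 difference of the LCE2 genes. Its normalized values were 1545, 1398, 1978 and 469 in 5B2, 503, 462, 2047 and 3858 in 6C9, and 2023, 1457, 1534 and 2213 in 6C10. In KO tumours they were 708, 1075 and 1722 in 2F7, 421, 498, 502 and 745 in 2B8, and 409, 1004, 1645 and 162 in 1G10. The 1G10 specimens 5547 and 5548 thus reached the range of 2F7, and 9 of the 11 were below the WT median. The log2 difference was -1.02 (SE 0.39, limma adjusted p = 0.304).

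**Figure D2:**
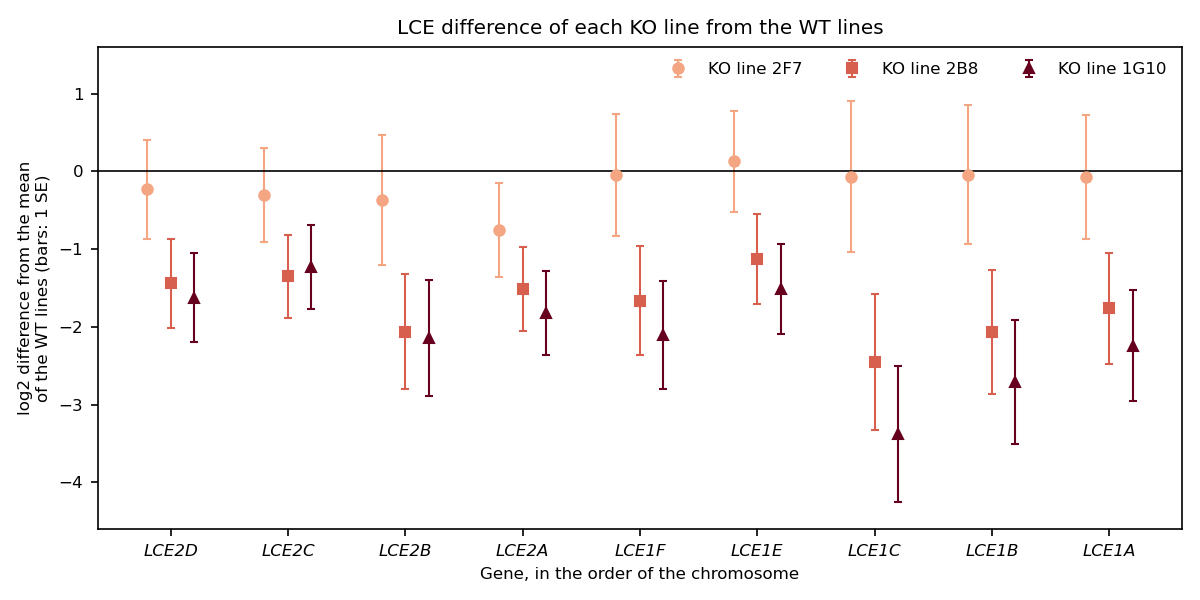
The log2 difference of each KO line from the mean of the WT lines for the 9 tested members, in chromosome order, with bars of 1 SE. Line 2F7 (circles) lies between 0.13 and -0.75, and lines 2B8 (squares) and 1G10 (triangles) lie between -1.13 and -3.38.

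The KO lines were not alike in their estimates. Against the mean of the WT lines, the median log2 difference of the 9 members was -0.07 in 2F7, -1.66 in 2B8 and -2.11 in 1G10. By limma 0 of 9 were called lower in each line, as were 0% of all genes. At an unadjusted p under 0.05, 0 of 9 were lower in 2F7, 8 of 9 in 2B8 and 9 of 9 in 1G10, against 1.1%, 4.47% and 5.62% of all genes. LCE1C had log2 differences of -0.07 (SE 0.97) in 2F7, -2.45 (SE 0.87) in 2B8 and -3.38 (SE 0.87) in 1G10. Those of LCE2A were -0.75 (SE 0.60), -1.51 (SE 0.54) and -1.82 (SE 0.54). All 3 lines were below 0 for 8 of 9 members, against 26.7% of all genes, and the other, LCE1E, was at 0.13 in 2F7. In 2F7, however, LCE1A, LCE1B, LCE1C and LCE1F were between -0.07 and -0.04 (SE 0.78 to 0.97). Their signs there do not show a difference, and members that vary together are not separate observations. Tested directly among the 3 KO lines, 0 of 9 members were called by limma's F test (0% of all genes), and at an unadjusted p under 0.05 only LCE1C was, at p = 0.0279 (2.22% of all genes). The 3 WT lines gave 0 of 9 (0.00623% of all genes) and 0 of 9 unadjusted (10.3%).

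Low LCE tumours were found in both genotypes. For LCE1 and LCE2 genes summed, the WT tumours held 0.0122% to 0.214% of the library's signal (median 0.0861%) and the KO tumours 0.00437% to 0.0790% (median 0.0273%). The highest WT tumour for 8 of 9 members was 6C9 specimen 5533, the shallow library, and the lowest KO tumour for 8 of 9 was 1G10 specimen 5549. Without both shallow libraries the median log2 difference of the members was -1.09, and without specimen 5549 it was -1.18. Leaving out these 3 libraries together, a choice made after the values were seen, gave -0.79, with 9 of 9 still below 0 and 0 called.

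Some members varied more than others, so the makeup of the family differed between tumours. Ratios and shares of members depend on their lengths, so only their change from tumour to tumour is described. The log2 ratio of LCE1C to LCE2C had a median of -0.18 in WT tumours, from -3.02 in 6C9 specimen 5531 to 0.76 in 6C9 specimen 5533. In KO tumours the median was -1.45, from -3.30 in 1G10 specimen 5549 to 0.14 in 2F7 specimen 5538. The 1G10 specimens 5547 and 5548 had ratios of -2.87 and -3.11, below every other KO tumour except 5549. The LCE1 genes made up 40.8% to 67.96% of the summed LCE1 and LCE2 values in WT (median 63.1%) and 40.7% to 69.3% in KO tumours (median 55.2%), ranges that overlap almost wholly. The SD of the log2 values over all tumours was 2.08 for LCE1C, 1.80 for LCE1B and 1.62 for LCE2B, and 1.10 for LCE2C.

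**Figure D3:**
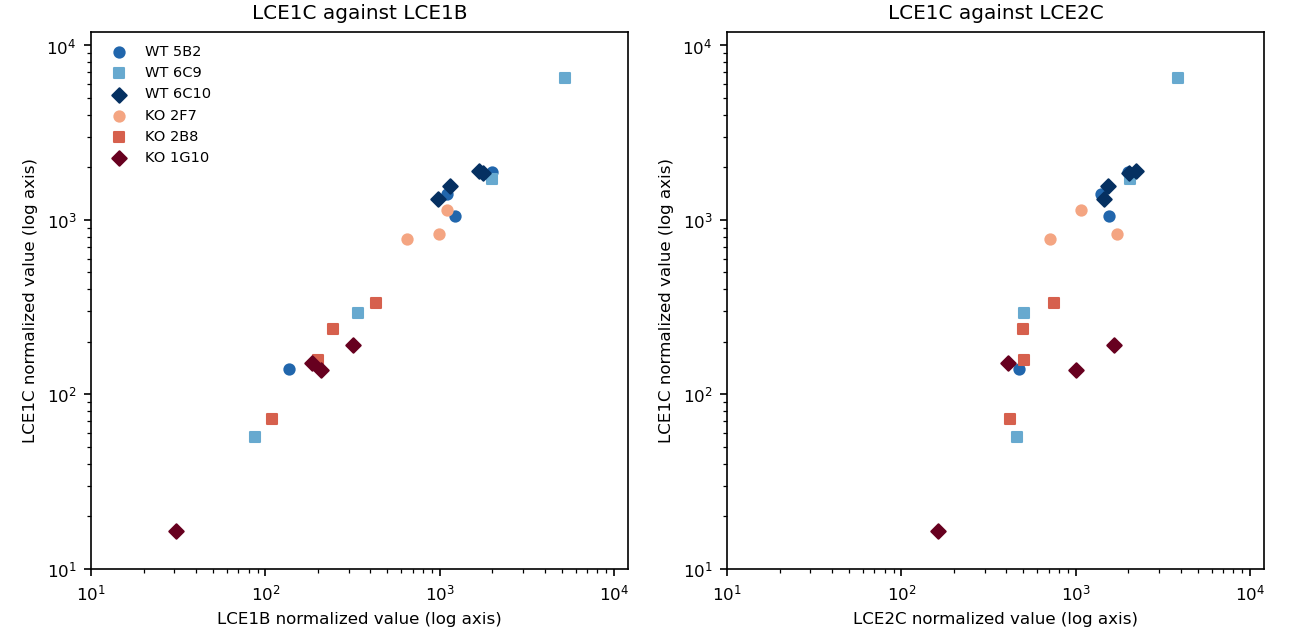
LCE1C against LCE1B and against LCE2C in each of the 23 tumours (normalized values, both axes log, marker and colour by line). LCE1C and LCE1B follow each other over the whole range, while from the lowest to the highest tumour LCE1C spans 395-fold and LCE2C 23.8-fold.

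Across the 23 tumours the members followed each other closely. Pearson's r of log2 values ran from 0.860 to 0.992 over the 36 pairs, with a median of 0.952. The median was 0.968 within LCE1, 0.955 within LCE2 and 0.939 between the groups. With each line's mean subtracted the median over all pairs was 0.941, so the relation also held among tumours of a line. These values are descriptions over tumours, several of which came from each line and which differed in library depth. For most members they also include reads in shared windows.

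Genes outside the LCE1 and LCE2 groups were ranked by r with the mean standardized log2 value of the 9 members over the 23 tumours. The highest was UBL3, a ubiquitin-like protein that attaches to membranes, at r = 0.974 (0.967 with line means subtracted). The WT mean of UBL3 was 1504 ± 419 (SD, n = 12) and its KO mean 969 ± 264 (SD, n = 11). AZGP1, the secreted zinc-alpha-2-glycoprotein, followed at 0.968, with 3141 ± 2477 and 928 ± 719. C1orf68 and LCE6A, which lie within and beside the cluster, were at 0.966 and 0.962. RNASE7, an antimicrobial ribonuclease of the skin, and WFDC12, a protease inhibitor, were both at 0.947. With line means subtracted the ubiquitin ligase gene LNX1, at 0.930, took the place of RNASE7. Over all genes tested the median r was -0.10, with a 5th to 95th percentile range from -0.64 to 0.65.

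**Figure D4:**
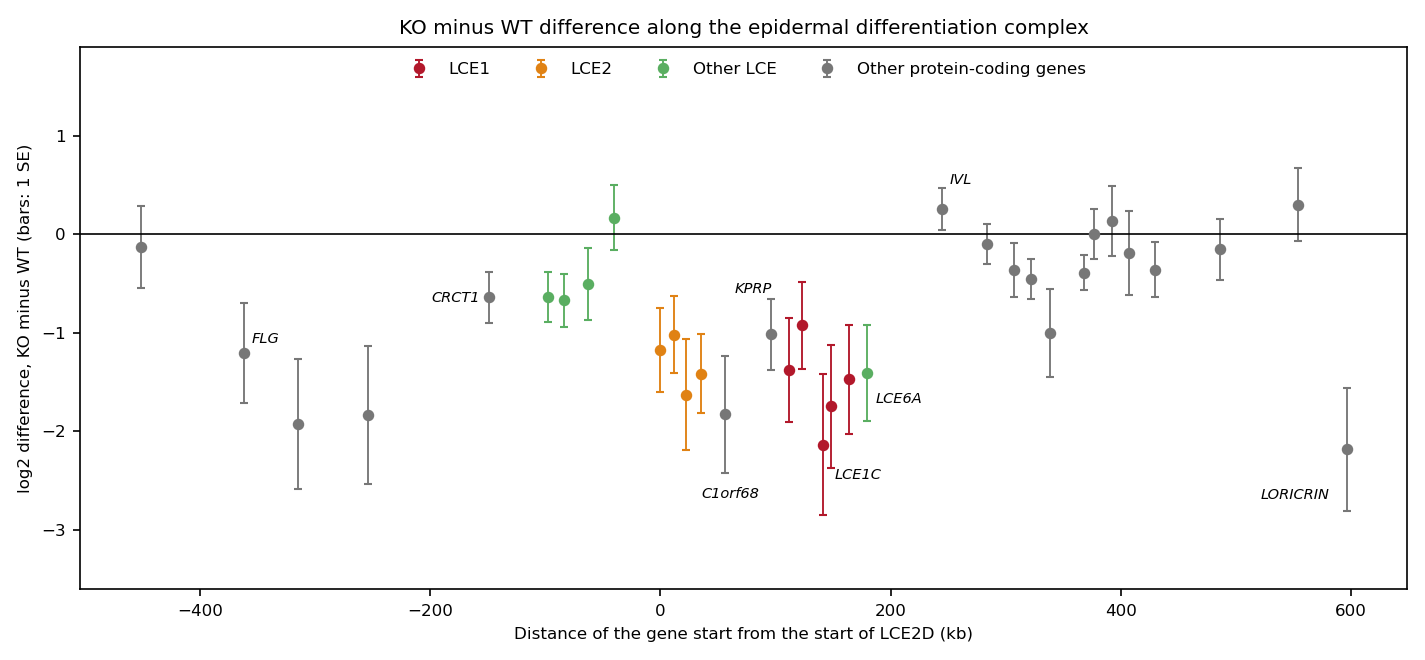
The log2 difference of KO from WT for tested protein-coding genes around the members, by distance of the gene start from LCE2D in kb, with bars of 1 SE. All 12 genes from LCE2D to LCE6A lie between -2.13 and -0.92, and genes on either side include differences near and above 0.

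The non-LCE genes lying among the members, C1orf68 and KPRP, had estimates of the same sign. From LCE2D to LCE6A, 12 of 12 tested protein-coding genes were below 0, with a median of -1.41. Of these 12, 9 are the members. The others were LCE6A, C1orf68, which encodes a skin-specific protein (700 ± 438 in WT, 227 ± 217 in KO), and KPRP, the keratinocyte proline-rich protein (6102 ± 3175 and 3183 ± 1861). The genes counted on either side ran from HRNR at -451 kb to LORICRIN at 596 kb from the start of LCE2D. Genes farther out were not counted, so the counts and extremes depend on that window. Before LCE2D 8 of 9 were below 0 (median -0.64), with LCE3A at 0.17 and FLG2 at -1.92 as the extremes and CRCT1, a cysteine-rich protein gene, at -0.64. After LCE6A 10 of 13 were (median -0.19), with IVL and SPRR2A among those above 0, from 0.30 for PRR9 to -2.18 for LORICRIN. None of these was called by limma, and the median over all genes tested was 0.03.

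Among the other LCE genes 0 of 5 tested were called by limma, 3 were lower at an unadjusted p under 0.05 (6.63% of all genes were), 4 were below 0 and the median log2 difference was -0.63. LCE6A was at -1.41 (383 ± 231 in WT, 145 ± 89.1 in KO), and the LCE3 genes LCE3D and LCE3E were at -0.67 and -0.63. Cornified envelope proteins and transglutaminases, the partners and enzymes of cross-linking, had 0 of 30 called (14 lower unadjusted), 25 below 0 and a median of -0.46. Their smallest p-values were those of SCEL, sciellin (-1.02), LORICRIN, the main envelope protein (-2.18), and KRTDAP, keratinocyte differentiation-associated protein (-1.25). Of the spinous and granular genes 0 of 17 were called (10 lower unadjusted) and 15 were below 0, with a median of -0.92. Here the lipase LIPN (-1.06) and the kallikrein proteases KLK5 (-1.54) and KLK7 (-1.41) had the smallest p-values. Transcription factors of late differentiation had 0 of 22 called (6 lower and 1 higher unadjusted), 14 below 0 and a median of -0.18. Over all genes tested the median log2 difference was 0.03, so values below 0 were common among all genes. The share of all genes below 0, or higher at an unadjusted p under 0.05, was not counted.

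Sums of human genes used as markers of cell types were compared with the members. The tumours grew in mice and the handling of mouse reads is not given, so these sums do not measure the content of a cell type. Over the 23 tumours the mean member level had r = -0.755 with the summed fibroblast markers, r = -0.686 with the keratinocyte markers, which are mostly basal and wound-type, and r = 0.655 with the endothelial markers, of which PECAM1 was under 1 on average. Subtracting line means gave -0.803, -0.524 and 0.426. The adipocyte markers had r = 0.607 (0.563 with line means subtracted), with 4 of 5 in the table and 0 at a mean of at least 10. The immune, skeletal muscle and melanocyte sums had r = -0.092, 0.346 and 0.277. For single genes, over all genes tested, the 5th to 95th percentile range of r was -0.64 to 0.65. The fibroblast sum, with 8 of 10 markers at a mean of at least 10, ran from 2850 through 7116 to 17386 in WT and from 4132 through 8127 to 28887 in KO tumours. The endothelial sum, with 2 of 8 markers at that level, ran from 111 through 202 to 251 in WT and from 90.8 through 128 to 248 in KO tumours. The keratinocyte sum had a median of 1127430 in WT and 1371220 in KO tumours, with ranges that overlapped. The mitochondrial share had r = 0.268 with the members, or -0.274 without specimens 5528 and 5533, and 0.341 with line means subtracted. For log2 estimated reads r was -0.465, or -0.0972 without both shallow libraries, and -0.633 with line means subtracted over all 23 tumours. The part of these in the members' difference was not tested.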

How the data were processed

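Poly(A) RNA from the tumours, 500 ng each, was made into directional libraries, per the labels' protocols. The deposited table holds 1 normalized signal per gene and tumour. STAR, DESeq2 and hg38 are named in the submitters' processing notes without versions or roles. Strand use in counting and the handling of mouse reads are not given in the sources used here. Low values repeated at multiples of 1 step per library, taken as 1 read. Of the values up to 20 reads, 69.8% to 83.1% per library were whole within 0.02 reads, so whole reads were not recovered, and dividing each total by its step gave the estimated reads.

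Values were analysed as log2(value + 1), which understates the change of low genes. A mean of 10 or more was required. The genes were fitted in limma 3.58.1 (R 4.3.3) with a variance trend and the line as a random block (consensus correlation 0.0077). At that correlation the block changed little, with an SE for LCE1C of 0.711 with it and 0.704 without. The p-values of KO against WT thus rest on tumours, not lines, as the units. They were adjusted by Benjamini-Hochberg over 16063 genes at 0.05. Lines were compared in a second fit with 1 mean per line. On simulated data for KO against WT the test called 78 of 100 2-fold and 94 of 100 4-fold changes and 22 of 15863 unchanged genes. Each simulated gene had its own spread, tumours were independent, lines had no effect, and the changed genes were picked at random. These rates do not apply to the members, whose log2 SD over all tumours was 1.10 to 2.08 and which varied together. Over pairs of libraries, chi-square per degree of freedom was at least 7.71, so no library was counted as a repeat.

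Named genes are the members, the 6 genes most like them with and without line means subtracted, and the 3 members of each list with the smallest p. The genes at the extremes of the regions around the members, and those named by their r, were chosen after their values were seen. The members and lists were chosen with earlier results of these data known. Alternatives were other pseudocounts, filters and scalings, library quality weights, no block, line means as samples, and leaving out tumours, lines or shallow libraries.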

Additional observations from a re-analysis of the deposited data

How the results depend on the processing

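Each tested member kept a log2 difference below 0 in KO tumours under every alternative run that tested it (a filter at a mean of 50 left out LCE1E), and 0 were called except with library quality weights. Those weights called 6 members: LCE1A (adjusted p = 0.0419), LCE1B (0.0349), LCE1C (0.0223), LCE2A (0.0149), LCE2B (0.0301) and LCE2D (0.0417), all in limma. The adjusted p of LCE2A ran from 0.0149 to 0.814 over its alternatives. Against the WT lines, weights called 1 member lower in 1G10, 5 in 2B8 and 1 in 2F7. Counted in either direction, 326, 1045 and 7906 of all 16063 genes were called there, so these counts are not on the same footing. Weights called 8 members among KO lines and 7 among WT lines, with 6459 and 1919 of all genes. The fit of weights for these line comparisons did not converge. In KO against WT weights called 738 of all genes. Leaving out each tumour called 0 members in KO against WT and 0 to 1 lower in 1G10. The 1 was called without WT 6C9 specimen 5531, where 26 of all genes were called in either direction. With each tumour left out, the median log2 difference of the members in KO against WT was -1.63 to -1.18. Without line 1G10 it was -1.03 and without 2F7 -1.88. With line means as samples it was -1.36 with 0 called. The 1 gene called of all genes was lost in some fits (0 to 2 called with each tumour left out). Without a filter LCE1D was at 0.09 (SE 0.26, limma adjusted p = 0.901). Leave-one-out fits used the correlation of all tumours. No paired analysis was possible because specimen labels are not shared between genotypes. Few reads limit LCE1D and LCE1E, and reads shared between copies limit every member but LCE2A.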

Other observations

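Transcription factors of late epidermal differentiation differed in how they followed the LCE1 and LCE2 genes over the 23 tumours. Their median r was 0.28, against -0.10 over all genes tested, whose 5th to 95th percentile range was -0.64 to 0.65. Those named here by their r were chosen after the values were seen. HOPX, a homeodomain-only protein of differentiated keratinocytes, had the highest r of the 22, 0.933, with a WT mean of 2018 ± 1384 (SD, n = 12) and a KO mean of 823 ± 392 (SD, n = 11). GATA3 and ELF3 followed at 0.785 and 0.772. KLF4, a factor of barrier formation, was at 0.325 and GRHL3 at -0.218, both within the range of all genes. VDR, the vitamin D receptor, had the lowest r, -0.801, and TP63, the master factor of basal keratinocytes, was at -0.641, the edge of that range. None of the 22 was called in KO against WT by limma. Several tumours came from each line, and library depth differed between tumours. The smallest p-values were those of ELF3, HOPX and CEBPB, with log2 differences of -0.86, -1.12 and -0.37.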
